A study of Mus musculus with 15 samples.

Results

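Immediate early response genes are switched on within minutes of a stimulus, without new protein synthesis, and their transcripts are short-lived. The 10 described here were chosen by name as members of this class: Fos, Fosb, Jun, Junb, Egr1, Ier2, Ier3, Dusp1, Zfp36 and Atf3. Each of the 10 was found among the 55416 gene identifiers counted in mouse blood, and each passed the filter on low counts over the 15 libraries. In this family, growth factor, cytokine and stress signals reach MAP kinases, which activate serum response factor (SRF) and its partners at the promoters. Fos and Jun proteins then pair as the transcription factor AP-1, Egr1 and Atf3 act as further transcription factors, and Dusp1 and Zfp36 dampen the response. Blood neutrophils and monocytes are known to express many of these genes, and handling of cells after collection is known to induce them.

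Whole blood RNA from cheek bleeds was sequenced for 15 C57BL/6 mice, with 1 library per mouse, and the source labels name peripheral blood. The labels give one growth protocol for all 15 animals, transplantation of 4MOSC1 cells, a line from a mouse oral squamous carcinoma, into the tongue with 10 days of growth, and the study used female mice of 4 to 6 weeks. The untreated group held 5 mice without drug or surgery, the early ND group held 5 mice given 2 doses of αCTLA-4 (an antibody against a T cell checkpoint receptor) and an early neck dissection (ND, removal of the lymph nodes that drain the tongue), and the late ND group held 5 mice given αCTLA-4 and a late ND. Early ND was set on day 6 and late ND on day 11, and the study's legend puts the bleed on day 10 whereas its text puts it after the late surgery, so "late ND" is used below as the name of a group. No group was labelled as given αCTLA-4 alone. By the legend's day 10 the late ND mice would have had αCTLA-4 and no surgery yet, and by the text both. Drug and surgery therefore cannot be told apart with certainty against untreated mice.

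Between 5527108 and 13924361 counts per library fell on genes. Late ND libraries were deeper, at 7849602 to 13924361 counts, than early ND libraries, at 5527108 to 7182346. Hemoglobin genes took 14.9% to 29.3% of the counts in late ND libraries, 38.3% to 64.1% in early ND libraries and 31.6% to 61.7% in untreated libraries. The libraries of untreated mouse 2, late mouse 2 and late mouse 3 were poor in 18S ribosomal RNA sequence, at 313 to 766 CPM (counts scaled to the library total). Markers of skin and its glands summed to 935 CPM in untreated mouse 5, 507 in early mouse 3 and 651 in late mouse 5, against 29.2 to 199 in the other 12 libraries. Of these 8 skin and gland markers, Mup20 and Awat1 were at 0 in all libraries. Scd3 and Elovl3 had group means of 47.3 to 185 CPM, and the keratins in the list had group means of at most 0.81 CPM. The sums, and the name skin-rich used below, therefore rest mainly on Scd3 and Elovl3 and not on keratins. Results that rest on either set of libraries are given with and without them.

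Of the 10 genes, Zfp36 and Atf3 were the 2 that passed a test between groups. Promoters of 8 of the 10 genes were searched for motifs. Those of Zfp36 and Atf3 are shown with those of Fos and Dusp1, the others with a matching motif. Each holds the 250 bases before the annotated start from RefSeq on mouse build GRCm38.p6. Capitals mark 3 motifs searched on both strands: the CArG box to which SRF binds, TGACGT, the core of the cAMP response element bound by CREB and ATF proteins, and TATAAA, the TATA box.
Zfp36, chr7:28379229-28379478, minus strand: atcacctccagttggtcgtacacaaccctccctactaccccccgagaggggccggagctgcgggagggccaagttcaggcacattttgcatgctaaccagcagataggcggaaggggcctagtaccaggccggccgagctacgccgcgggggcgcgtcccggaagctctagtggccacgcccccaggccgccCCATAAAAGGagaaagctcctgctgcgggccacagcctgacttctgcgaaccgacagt
Atf3, chr1:191183334-191183583, minus strand: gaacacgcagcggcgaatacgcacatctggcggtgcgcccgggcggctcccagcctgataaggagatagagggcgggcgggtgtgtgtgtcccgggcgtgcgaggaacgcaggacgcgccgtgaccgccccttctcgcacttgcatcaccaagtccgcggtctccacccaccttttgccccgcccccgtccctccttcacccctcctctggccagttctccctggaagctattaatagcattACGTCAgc
Fos, chr12:85473640-85473889, plus strand: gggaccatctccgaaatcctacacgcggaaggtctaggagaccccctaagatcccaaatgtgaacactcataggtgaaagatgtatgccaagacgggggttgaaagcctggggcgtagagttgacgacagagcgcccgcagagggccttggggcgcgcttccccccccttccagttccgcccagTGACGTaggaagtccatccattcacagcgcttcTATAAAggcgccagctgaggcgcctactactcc
Dusp1, chr17:26508473-26508722, minus strand: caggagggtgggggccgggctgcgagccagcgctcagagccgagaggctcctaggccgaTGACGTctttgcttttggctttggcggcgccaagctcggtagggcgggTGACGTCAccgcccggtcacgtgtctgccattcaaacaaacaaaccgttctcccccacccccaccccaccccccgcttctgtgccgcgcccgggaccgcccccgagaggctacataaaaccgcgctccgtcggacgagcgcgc
The 8 genes searched left out Ier2, which the promoter table did not hold, and Egr1, which was set aside before the search. The counts below therefore say nothing about Egr1 or Ier2. Zfp36 was the 1 of these 8 with a CArG box, from 58 to 49 bases before its start, and 1.47% of the 32851 promoters in the table held such a box. That match contains the letters ATAAAA, so it partly resembles a TATA box. TGACGT was present in 3 of the 8 genes, in Atf3 from 8 to 3 bases before the start, in Fos from 66 to 61 and in Dusp1 at 191 to 186 and, as an overlapping match on both strands, at 143 to 136, and 6.47% of all promoters held it. TATAAA was present in 1 of the 8, Fos, at 33 to 28 bases before the start, against 12.4% of all promoters. The AP-1 site TGANTCA was found in 0 of the 8, against 6.75% of all promoters. These are matches of letters in short windows and were not measured as binding. Sites further than 250 bases upstream were not searched, so a gene without a match here may hold one there.

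All levels of the 10 genes are CPM after TMM scaling, which sets library sizes so that most genes do not differ. To compare genes with each other, levels were divided by exon length on build GRCm39. Junb, an AP-1 subunit, had the highest level of the 10 at 75.0 ± 26.4 CPM per kb (SD, n = 15), above 98.3% of the protein-coding genes that passed the filter. Dusp1, a phosphatase that inactivates MAP kinases, followed at 42.2 ± 17.8 CPM per kb (SD, n = 15), and Zfp36, which binds AU-rich elements and promotes decay of cytokine transcripts, at 33.6 ± 11.1 CPM per kb (SD, n = 15). Ier2 had 26.6 ± 6.33 CPM per kb (SD, n = 15), Ier3 10.2 ± 5.25 (SD, n = 15) and Fos 10.2 ± 6.62 (SD, n = 15), and Ier3 and Fos did not differ beyond their spread. Jun followed at 5.002 ± 1.58 CPM per kb (SD, n = 15), Atf3 at 2.01 ± 0.75 (SD, n = 15), Egr1 at 0.68 ± 0.29 (SD, n = 15) and Fosb at 0.21 ± 0.10 (SD, n = 15). Egr1 lay at the percentile 17.7 and Fosb at the percentile 3.13 of protein-coding genes. Each gene overlapped its neighbours in this order in range over the libraries. Within a gene the spread over mice was widest for Ier3, whose highest library was 9.81 times its lowest, and narrowest for Ier2, at 2.10 times.

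**Figure D1:**
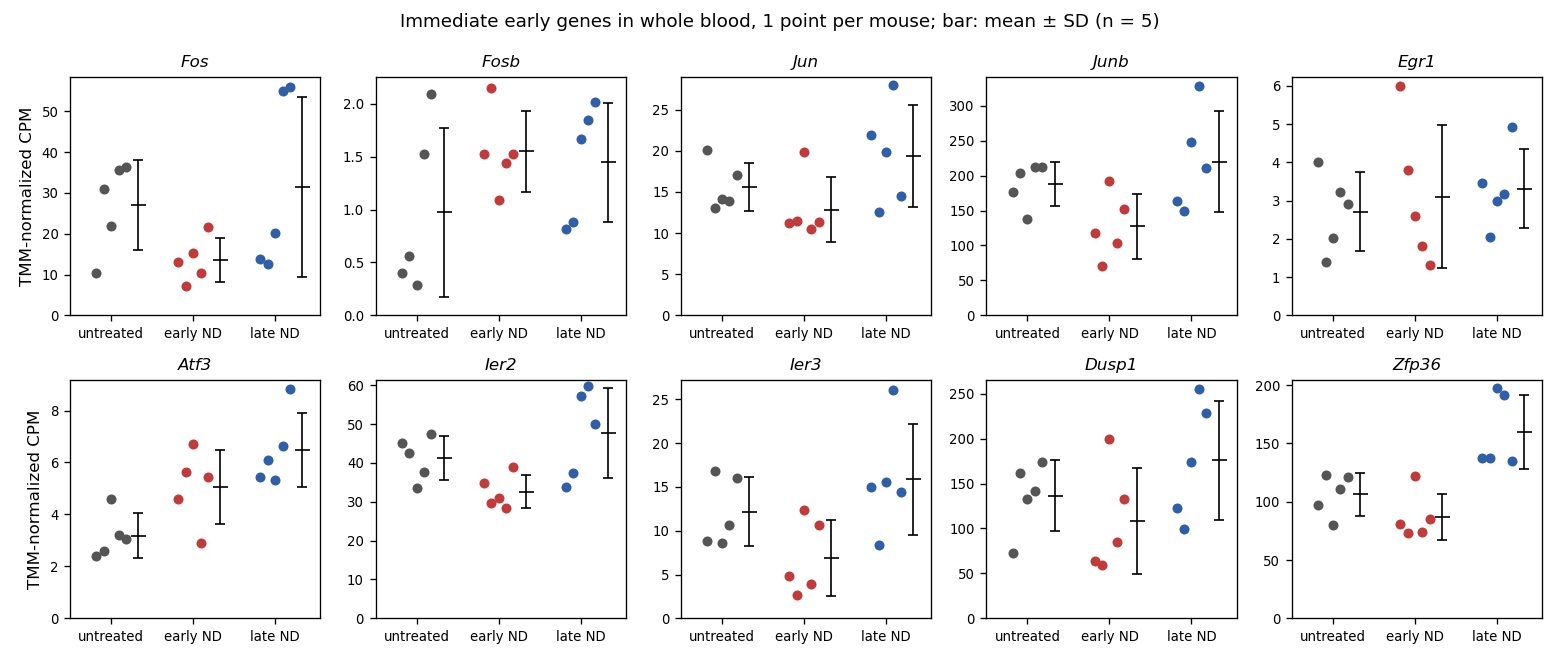
TMM-normalized CPM (vertical axes, each from 0) of the 10 genes by group, 1 point per mouse in replicate order, with mean ± SD (n = 5) beside the points. For Zfp36 all late ND mice, at 135 to 198 CPM, sit above all others, and for Atf3 all late ND mice, at 5.34 to 8.84 CPM, sit above all untreated mice.

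The 2 inhibitors of the response are described first. Zfp36 (ENSMUSG00000044786, chromosome 7, 28076209 to 28079710, minus strand, GRCm39) had 81.0, 73.0, 122, 74.3 and 84.9 CPM in early ND mice 1 to 5, 138, 138, 198, 192 and 135 CPM in late ND mice, and 96.9, 123, 79.7, 111 and 121 CPM in untreated mice. Every late ND mouse lay above every mouse of both other groups, and early mouse 3 was the early ND mouse nearest to them. Zfp36 rose in late against early ND by a log2 fold change of 0.90 (standard error, SE, 0.18, adjusted p = 0.0210 in the quasi-likelihood test of edgeR, Benjamini-Hochberg adjusted over 13315 genes). Against untreated mice its log2 fold change in late ND was 0.59 (SE 0.16, adjusted p = 0.0770, edgeR), so the second comparison did not pass although the groups did not overlap. In early ND against untreated the log2 fold change was -0.29 (adjusted p = 0.938, edgeR). The late against early call was lost without the libraries poor in 18S sequence (log2 fold change 0.83, adjusted p = 0.0592, edgeR) and when early mouse 4, late mouse 3 or late mouse 4 was left out (adjusted p = 0.0608, 0.0599 and 0.0529, edgeR).

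Dusp1 (ENSMUSG00000024190, chromosome 17, 26724564 to 26781102, minus strand) had 64.2, 59.0, 199, 85.1 and 133 CPM in early ND mice, 123, 99.95, 174, 255 and 228 CPM in late ND mice, and 72.4, 162, 133, 142 and 174 CPM in untreated mice. The groups overlapped, and early mouse 3 stood above 3 of the 5 late ND mice. Its log2 fold change in late against early ND was 0.71 (SE 0.35, adjusted p = 0.246, edgeR), which was within the spread between mice.

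The AP-1 subunits gave positive but uncalled differences for 3 of 4 genes in late against early ND. Fos (ENSMUSG00000021250, chromosome 12, 85520658 to 85524047, plus strand) had 13.1, 7.12, 15.2, 10.5 and 21.6 CPM in early ND mice, 13.9, 12.6, 20.2, 54.9 and 55.9 CPM in late ND mice, and 10.5, 30.8, 21.9, 35.7 and 36.4 CPM in untreated mice. Only late mice 4 and 5 lay above the early ND range, and the other 3 lay within it. Its log2 fold change of 1.22 (SE 0.45, adjusted p = 0.122, edgeR) was the largest of the 10 and did not pass. In early ND against untreated Fos had a log2 fold change of -1.03 (unadjusted p = 0.00782, adjusted p = 0.938, edgeR), and 1 of the 5 early ND mice lay below all untreated mice.

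Junb (ENSMUSG00000052837, chromosome 8, 85701113 to 85705359, minus strand) had 117, 70.9, 193, 104 and 153 CPM in early ND mice, 163, 149.8, 247, 328 and 212 CPM in late ND mice, and 176, 203, 138, 212 and 212 CPM in untreated mice. Late mice 3, 4 and 5 were above all early ND mice, whereas early mouse 3 lay above late mice 1 and 2. The log2 fold change in late against early ND was 0.80 (SE 0.27, adjusted p = 0.102, edgeR). Of the exon bases of Junb, 13.4% lie opposite another gene on the other strand, chiefly Prdx2, an erythroid-rich peroxiredoxin, and the strand setting of the counting is not given in the sources used here. Prdx2 went the other way, at 56.0 to 110 CPM in late ND and 85.0 to 734 CPM in early ND (log2 fold change -2.06, adjusted p = 0.0292, edgeR).

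Jun (ENSMUSG00000052684, chromosome 4, 94937271 to 94940459, minus strand), the founding AP-1 subunit, had 11.2, 11.4, 19.8, 10.5 and 11.4 CPM in early ND mice, 22.0, 12.6, 19.8, 27.99 and 14.5 CPM in late ND mice, and 20.1, 13.01, 14.1, 13.9 and 17.1 CPM in untreated mice. Early mouse 3 alone reached the late ND range. The log2 fold change was 0.58 (SE 0.24, adjusted p = 0.157, edgeR), and 16.6% of the exon bases lie opposite the antisense gene Junos. Fosb (ENSMUSG00000003545, chromosome 7, 19036621 to 19043976, minus strand) was counted 1 to 38 times per library, at 1.09 to 2.15 CPM in early ND, 0.82 to 2.02 CPM in late ND and 0.29 to 2.10 CPM in untreated mice. At this depth no difference in Fosb was detectable (late against early log2 fold change -0.07, SE 0.33, adjusted p = 0.926, edgeR), and it did not pass the filter for early ND against untreated.

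Subunits of AP-1 were present in unequal amounts. Per kb, Junb was 8.31 to 20.9 times Jun in a library (median 15.7), and Fos was 8.76 to 201 times Fosb (median 45.01), the latter resting on few Fosb counts. Jund, the constitutive Jun protein gene, had more than either, at 134 ± 23.4 CPM per kb in late ND, 159 ± 31.4 in early ND and 169 ± 32.7 in untreated mice (SD, n = 5 each). Junb approached Jund most closely in late ND, with 92.4 ± 30.2 CPM per kb (SD, n = 5), against 53.5 ± 19.6 in early ND (SD, n = 5). Fosl2 had 16.6 ± 6.18 CPM per kb in late ND and 7.78 ± 3.27 in early ND, and was close to Fos at 13.4 ± 9.33 and 5.73 ± 2.31 (SD, n = 5 each).

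The 2 other transcription factors differed in pattern. Atf3 (ENSMUSG00000026628, chromosome 1, 190902493 to 190950241, minus strand), a stress-induced factor of the ATF/CREB family, had 2.41, 2.58, 4.604, 3.21 and 3.06 CPM in untreated mice, 4.58, 5.63, 6.71, 2.89 and 5.46 CPM in early ND mice, and 5.45, 6.09, 5.34, 6.65 and 8.84 CPM in late ND mice. All 5 late ND mice lay above all 5 untreated mice, and 3 of 5 early ND mice did. Atf3 rose in late ND against untreated mice by a log2 fold change of 1.05 (SE 0.22, adjusted p = 0.0271 in the quasi-likelihood test of edgeR, Benjamini-Hochberg adjusted over 13547 genes). The early ND against untreated value was 0.72 (SE 0.26, unadjusted p = 0.0169, adjusted p = 0.938, edgeR), and the late against early value was 0.34 (SE 0.22, adjusted p = 0.377, edgeR). The counts behind these levels were 6 to 37 per untreated library and 60 to 152 per late ND library. The late ND call was lost when any 1 library other than untreated mouse 5 was left out (log2 fold change from 0.90 to 1.18 and adjusted p from 0.0293 to 0.0831 over the 10 omissions, edgeR) and without the libraries poor in 18S sequence (adjusted p = 0.149, edgeR) or those rich in skin and gland genes (adjusted p = 0.0521, edgeR). Over all genes, too, 0 were called higher and 0 lower without untreated mouse 3, late mouse 1, late mouse 4 or late mouse 5.

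Egr1 (ENSMUSG00000038418, chromosome 18), a zinc finger factor that is a usual marker of SRF-driven induction, had 5.99, 3.81, 2.60, 1.80 and 1.31 CPM in early ND mice, 3.45, 2.04, 2.98, 3.18 and 4.93 CPM in late ND mice, and 4.02, 1.39, 2.01, 3.21 and 2.90 CPM in untreated mice. The 3 groups overlapped, with 5 to 78 counts per library. Its log2 fold change in late against early ND was 0.04 (SE 0.36, adjusted p = 0.969, edgeR).

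The immediate early response proteins Ier2 and Ier3 came next. Ier2 (ENSMUSG00000053560, chromosome 8, 85387960 to 85389483, minus strand), a nuclear protein of the response, had 34.9, 29.8, 31.1, 28.5 and 38.9 CPM in early ND mice, 33.9, 37.5, 57.2, 59.7 and 50.02 CPM in late ND mice, and 45.02, 42.5, 33.7, 37.7 and 47.4 CPM in untreated mice. Late mice 3, 4 and 5 stood above every other mouse. The log2 fold change in late against early ND was 0.57 (SE 0.17, adjusted p = 0.0643, edgeR). Ier3 (ENSMUSG00000003541, chromosome 17, 36132568 to 36133815, plus strand), a regulator of survival signalling, had 4.84, 2.65, 12.3, 3.97 and 10.7 CPM in early ND mice, 14.97, 8.42, 15.5, 26.0 and 14.4 CPM in late ND mice, and 8.84, 16.8, 8.63, 10.6 and 16.0 CPM in untreated mice. All late ND mice except mouse 2 lay above all early ND mice. Its log2 fold change was 1.18 (SE 0.39, adjusted p = 0.0926, edgeR), and 34.8% of its exon bases lie opposite an unnamed gene model.

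Over the family, 9 of 10 log2 fold changes in late against early ND were positive, with a median of 0.65 against 0.01 over all 13315 genes, and with library totals the exception, Fosb, was positive too. Of the 10, 1 was called higher and 0 lower, where 2.5% of all genes tested were called higher and 2.48% lower. At an unadjusted p under 0.05, 6 of 10 were higher (Fos, Jun, Junb, Ier2, Ier3 and Zfp36) and 0 lower, against 14.4% and 9.33% of all genes. Groups that did not overlap, late above early, were found for 1 of 10, against 2.98% of all genes. The count changed between settings, as did the number of calls over all genes. It was 0 of 10 without the libraries poor in 18S sequence, where 0.0298% of all genes were called higher, and 0 of 10 without early mouse 4, late mouse 3 or late mouse 4, where 0.275%, 0.293% and 0.268% were. It was 4 of 10 (Ier3, Jun, Junb and Zfp36) without the 3 libraries rich in skin and gland genes, a comparison added after the data were seen, where 5.51% of all genes were called higher. It was 5 of 10 (Dusp1 in addition) without early mouse 3 alone, where 7.73% were, and 4 of 10 (Ier2, Ier3, Junb and Zfp36) with DESeq2's Wald test, where 5.5% were.

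In late ND against untreated mice, 10 of 10 log2 fold changes were positive, with a median of 0.34 against 0.00235 over 13547 genes. They ranged from 0.17 for Fos to 1.05 for Atf3, and 1 of 10 was called higher and 0 lower, where 0.989% of genes were called higher and 2.01% lower. At an unadjusted p under 0.05, 2 of 10 were higher (Atf3 and Zfp36) and 0 lower, against 8.69% and 8.28% of genes, and the same genes were the 2 without overlap, against 2.5% of genes higher without overlap. The late ND libraries serve in this and the preceding comparison, so these sets of values are not independent.

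In early ND against untreated mice 9 of the 10 could be tested, and 7 log2 fold changes were negative and 2 positive (Egr1 at 0.35 and Atf3 at 0.72), with a median of -0.34 against -0.00216 over 12151 genes. The test called 0 of the 9 and 0% of all genes in either direction with edgeR. DESeq2's Wald test, which also tested Fosb, called 0 of the 10, where 0.00373% of all genes were called higher and 0% lower. At an unadjusted p under 0.05, 4 of 9 were lower and 1 higher, against 2.33% and 2.11% of all genes. The 4 were Fos at -1.03, Ier3 at -0.83, Junb at -0.56 and Ier2 at -0.34, with adjusted p = 0.938 each in edgeR's test, and the 1 higher was Atf3.

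**Figure D2:**
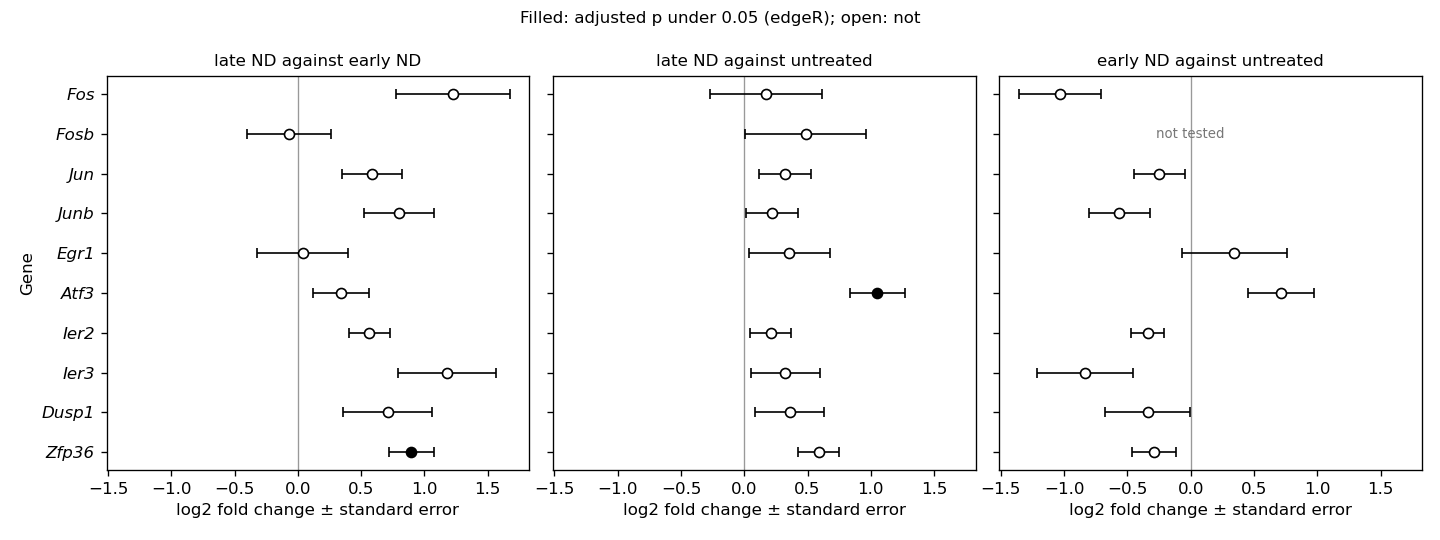
Log2 fold change ± standard error (horizontal axes) of the 10 genes in the 3 comparisons, from edgeR, filled where the adjusted p was under 0.05. Zfp36 at 0.90 in late against early ND and Atf3 at 1.05 in late ND against untreated are the filled points, and Fosb was not tested in the third comparison.

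Most of the 10 genes were high or low in the same mice, with Egr1 and Atf3 as exceptions. Late mouse 4 was the highest of the 15 for 5 genes and among the top 3 for 8, and late mouse 5 was among the top 3 for 6. Early mouse 2 was the lowest for 5 genes, and early mouse 4 was among the lowest 3 for 8. Early mouse 3 differed from its group: its summed level over the 10 genes was 602 CPM, whereas the other early ND mice had 266 to 461 CPM, untreated mice 435 to 631 CPM and late ND mice 467 to 955 CPM. After subtracting each group's mean, 38 of the 45 pairs of genes had a positive correlation of log2 CPM over the 15 libraries, with a median Pearson r of 0.366. Junb and Ier3 were the closest pair (r = 0.901), and Junb had a median r of 0.672 with the other 9. Egr1 stood outside the group with a median r of -0.0664, and Atf3 had 0.113. These values describe 15 libraries that differ in depth and in their share of red cell RNA, and genes of one library share both.

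**Figure D3:**
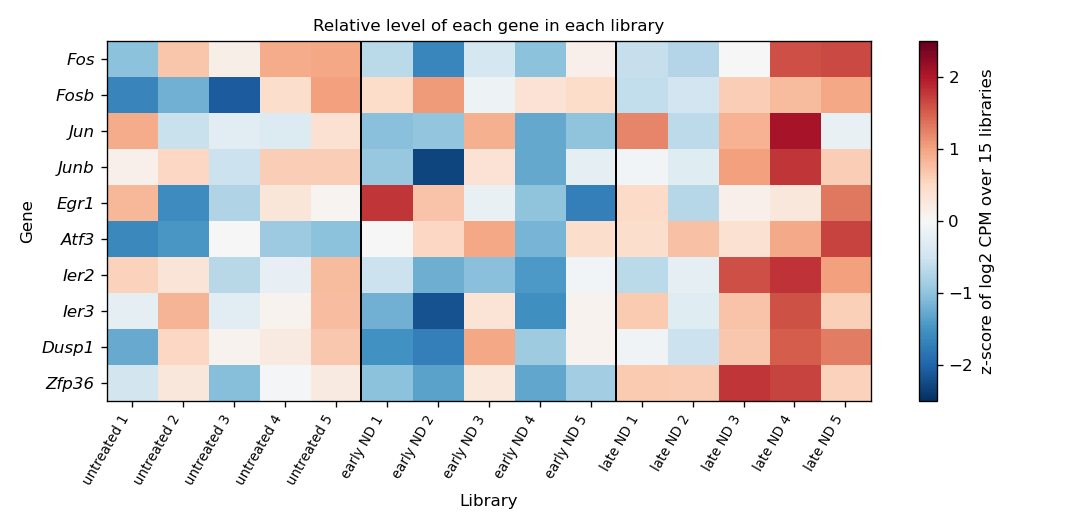
Z-score of log2 CPM (colour) of each gene (rows) in each library (columns, with lines between groups), computed over the 15 libraries. Late mice 4 and 5 are above average for most genes, early mice 2 and 4 are below it for most, and the Egr1 and Fosb rows follow another order.

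The genes whose log2 CPM most resembled the mean z-score of the 10 over 15 libraries, among 9485 genes with a mean of at least 5 CPM, were Rassf3 (Pearson r = 0.973), Sorl1 (r = 0.965), Furin (r = 0.962), Ttc7 (r = 0.957) and Degs1 (r = 0.955). Rassf3 remained the most similar gene after group means were subtracted (r = 0.971), where the other 4 ranked between 7 and 14. Their mean levels were 33.5 to 569 CPM, so the likeness did not rest on very low counts.

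A further 55 early response genes from the same pathways were examined, of which 47 could be tested in late against early ND, with 34 higher (46 with library totals), 13 lower and a median log2 fold change of 0.33. Of these, 2 were called higher and 1 lower, where 2.5% of all genes tested were called higher and 2.48% lower. None of the 3 calls held under every setting. Dusp6, a phosphatase that inactivates ERK, had 55.2 ± 13.9 CPM in late and 34.2 ± 5.91 CPM in early ND (SD, n = 5; log2 fold change 0.72, SE 0.17, adjusted p = 0.0378, edgeR). Trib1, a pseudokinase that promotes degradation of C/EBP proteins, had 19.9 ± 4.79 against 11.4 ± 2.601 CPM (SD, n = 5; log2 fold change 0.81, SE 0.20, adjusted p = 0.0392, edgeR). Ppp1r15a (GADD34), which directs dephosphorylation of eIF2α and is induced with Atf3 in the integrated stress response, had 10.3 ± 1.80 against 27.3 ± 15.3 CPM (SD, n = 5; log2 fold change -1.34, SE 0.32, adjusted p = 0.0382, edgeR). Ppp1r15a also fell in late ND against untreated mice, by 1.30 on the log2 scale (adjusted p = 0.0267, edgeR, lower in 5 of 5 mice than in any untreated mouse), so it moved opposite to Atf3 in that comparison. Zfp36l2, a paralog of Zfp36 with the same kind of RNA-binding domain, rose there by a log2 fold change of 0.62 (283 ± 39.0 against 185 ± 21.7 CPM, SD, n = 5, adjusted p = 0.0316, edgeR) and lay above all untreated mice in 5 of 5. In all, 46 of the 55 were tested in late ND against untreated, 33 higher (45 with library totals) and 13 lower. There was 1 call in each direction, where 0.989% of all genes were called higher and 2.01% lower. In early ND against untreated 43 were tested, 13 higher and 30 lower, with 0 calls. At an unadjusted p under 0.05 (edgeR), 0 were higher and 2 lower (Zfp36l1 and Socs3), against 2.11% and 2.33% of all genes. At the same threshold in late against early ND, 20 of the 47 were higher and 2 lower, against 14.4% and 9.33% of all genes. In late ND against untreated 8 of the 46 were higher and 2 lower, against 8.69% and 8.28% of all genes.

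By role in late against early ND, 5 of 8 tested bZIP factors were higher with 0 called, among them Jund at a log2 fold change of -0.22, Fosl2 at 1.10 and Cebpb at 0.80 (adjusted p = 0.445, 0.0606 and 0.134, edgeR). Of 10 EGR, NR4A, KLF and other factors, 8 were higher and 0 called, with Klf2 at 0.29, Klf6 at 0.43 and Nr4a1 at 0.15 (adjusted p = 0.170, 0.193 and 0.730, edgeR). The 15 feedback genes held 12 higher with the calls Dusp6 and Trib1, and the 9 other IER and growth arrest genes held 6 higher with the call of Ppp1r15a lower. Of 5 tested cytokine and secreted genes, 3 were higher and 0 called, with Il1b at 0.75, Tnf at 0.55 and Ccl4 at -0.02 (adjusted p = 0.190, 0.271 and 0.983, edgeR). The calls of Dusp6 and Trib1 were lost with DESeq2 size factors and without the skin-rich libraries, the call of Ppp1r15a was lost with library totals and under a block for replicate number, and all 3 were lost without the 18S-poor libraries. With 1 mouse left out, Dusp6 was called in 4 of 10 omissions, Trib1 in 3 and Ppp1r15a in 2. The wider calls depended on single libraries, and between 0 and 13 of them were made when 1 mouse was left out. There were 13 without early mouse 3, where 7.73% of all genes were called higher and 4.04% lower. There were 0 without early mouse 2, early mouse 4, late mouse 3, late mouse 4 or late mouse 5. In those omissions 0.268% to 0.639% of all genes were called higher and 0.796% to 1.93% lower. Against untreated mice the call of Ppp1r15a was lost with library totals and with all 3 groups in one fit, that of Zfp36l2 without the skin-rich libraries, and both without the 18S-poor libraries. There 0 wider calls were left in 8 of the 10 omissions in late ND, and 2 without untreated mouse 2 or 5.

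**Figure D4:**
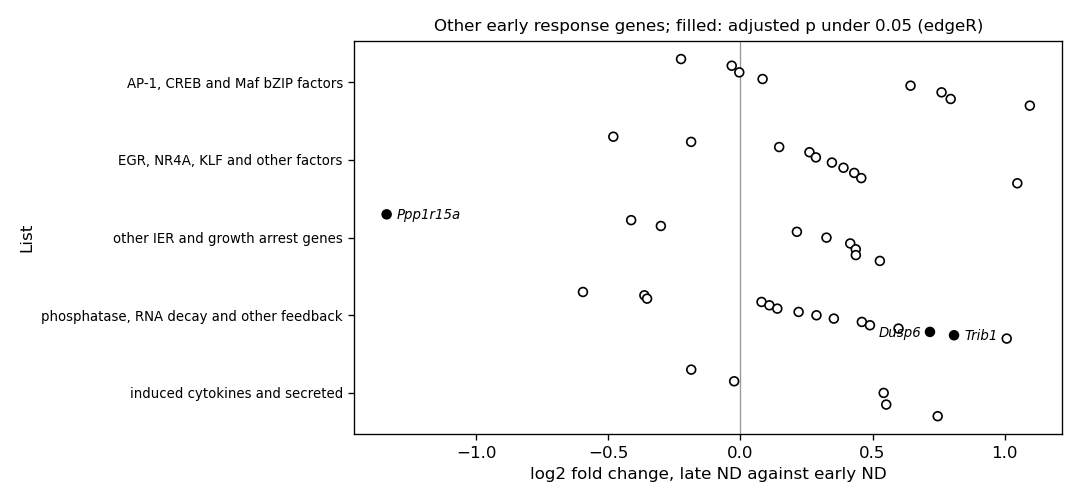
Log2 fold change in late against early ND (horizontal axis) of the tested genes of the wider early response list, grouped by role (rows), filled where edgeR's adjusted p was under 0.05. Of 47 points, 34 lie right of 0, and Dusp6, Trib1 and Ppp1r15a are filled.

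The median of the neutrophil markers had the sign of the family's median in all 3 comparisons, least clearly in late ND against untreated. In whole blood, fewer cells of a type and less RNA per cell cannot be told apart. Of all genes tested, 2.5% were called higher and 2.48% lower in late against early ND. In late ND against untreated, 0.989% were called higher and 2.01% lower. The summed level of 10 neutrophil markers, all detected, was 2498 to 7713 CPM in early ND, 5928 to 15824 CPM in late ND and 4657 to 12105 CPM in untreated mice. In late against early ND 9 of these 10 were higher with 2 called (Mmp8 and Cd177, median log2 fold change 1.16), and in early ND against untreated 10 of 10 were lower with 0 called (median -1.02). In late ND against untreated 7 were higher and 3 lower with 0 called (median 0.32), and the abundant S100a8 and S100a9 were at 0.02 and -0.04. The 8 monocyte markers, of which Nr4a1 is also in the wider list, summed to 578 to 1258 CPM in early ND, 1039 to 1548 CPM in late ND and 535 to 955 CPM in untreated mice, with 8 of 8 higher in late against early ND and 2 called (Csf1r and Fn1, median 0.47), and with 8 of 8 higher in late ND against untreated and 3 called (Ccr2 in addition, median 0.63). In early ND against untreated, where 7 of 9 members of the family were lower, 7 of 8 monocyte markers were higher with 0 called (median 0.16). The highest neutrophil and monocyte sums of late ND were both those of mouse 4, and the lowest neutrophil sum of all was that of early mouse 2. Early mouse 3 had the highest neutrophil sum of early ND. The part of these markers in the levels of the 10 genes was not tested.

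Red cell markers went the other way. All 7 erythroid markers were detected, and 7 of 7 fell in late ND against early ND (median log2 fold change -2.58) and against untreated mice (median -2.61). In late against early ND, where 2.48% of all genes were called lower, 1 of the 4 hemoglobin genes was (Hbb-bt, median of the 4 -2.05). Of 4 tested endothelial, muscle and fibroblast markers 4 were lower in late against early ND with 1 called (Pecam1, median -1.20). T cell markers were lower for 8 of 8 with 0 called in that comparison (median -0.26). In late ND against untreated they were lower for 8 of 8 with 1 called (Cd3g, median -0.45), where 2.01% of all genes were called lower. B cell markers (6 of 6 lower, median -0.33), NK cell markers (5 of 5, median -0.25) and platelet markers (5 of 5 tested, median -0.44, with Gp1bb at 0) had 0 calls in late against early ND, and skin and gland markers had 2 of 8 tested, both higher and 0 called (median 0.56). Their part in the results was not tested. Scaling by library totals in place of TMM shifted all genes tested in late against early ND, whose median went from 0.01 to 0.86, and then 8 of the 10 genes and 67% of all genes were called higher. Zfp36 at 1.71 lay above that shifted median, which exceeds the lymphocyte and platelet differences in size, and Egr1 at 0.78 and Fosb at 0.75 lay below it.

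**Figure D5:**
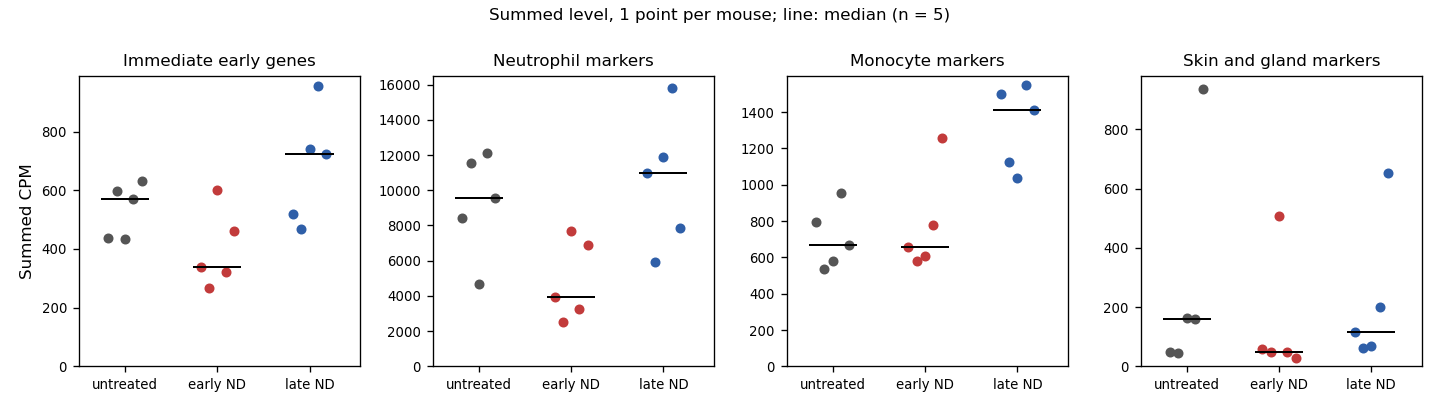
Summed CPM (vertical axes, each from 0) of the 10 immediate early genes and of neutrophil, monocyte, and skin and gland markers by group, 1 point per mouse and the median as a line. Late ND mice have 467 to 955 CPM of the 10 genes and 1039 to 1548 CPM of monocyte markers, and in each group 1 mouse has a skin and gland sum of 507 CPM or more.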

How the data were processed

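Whole blood RNA-seq of 15 mice (5 untreated, 5 early ND, 5 late ND) was used. The authors aligned paired reads to GRCm39 with STAR 2.7.9 and deposited HTSeq 0.13.5 counts per gene, not normalized. The strand setting and annotation release are not given in the sources used here. HTSeq's summary lines were left out, and 43.6% to 48.0% of the uniquely aligned read pairs fell on genes. HTSeq had set aside as not uniquely aligned 44.1% to 57.9% of its total in late ND libraries. This share was 66.4% to 75.2% in early ND and 64.8% to 73.1% in untreated libraries. Of 55416 identifiers, 54749 matched the gene annotation of GRCm39, which gave symbols and exon lengths.

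Groups were taken from the labels and compared pairwise with edgeR 4.0.16 (R 4.3.3): filterByExpr, TMM, quasi-likelihood F-test, and Benjamini-Hochberg adjustment over all genes tested, with calls at an adjusted p under 0.05. CPM was TMM-scaled, and log2 CPM used a prior count of 2. The script was tested on simulated data. The members, the wider, marker, handling and upstream lists and the tests were chosen with earlier results of these data known. Named genes were the members, every list gene past the threshold in a comparison, otherwise the 3 most abundant of a list (some outside this rule were named after their values were seen: Prdx2, Junos, Zfp36l1, Socs3, Ccl4), and the 5 most similar genes. Some genes of the upstream list are not reported here by name. Marker lists were described by their counts and called genes. Promoters were read from RefSeq (GRCm38.p6). Replicates of a group differed by more than counting error. The labels name no pairing of mice by replicate number. In late ND against untreated, same-number mice correlated at 0.243 on average, and 3 of 5 correlated best with their own number. Alternatives were other scalings, DESeq2 1.42.0, other filters, fits, a replicate block and omitted libraries. The authors' own differential tests were not used.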

Additional observations from a re-analysis of the deposited data

Results flagged for a closer look

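In 30 sets of 5 mice (10 genes in 3 groups), the gap between 1 extreme mouse and its nearest neighbour was compared with the range of its group, and a gap ratio above 0.71 was taken as standing apart. Chance gives this for about 1 in 20 sets. It was exceeded in 2 sets, both by early mouse 3. Jun in early mouse 3 was at 19.84 CPM, whereas the other 4 early ND mice had 10.46 to 11.43 CPM (gap ratio 0.897). Zfp36 in early mouse 3 was at 121.7 CPM, whereas the others had 73.05 to 84.9 CPM (gap ratio 0.756). Early mouse 3 was also the early ND library with the highest skin and gland marker sum (507 CPM) and the highest neutrophil and summed immediate early gene levels of its group, and the part of these in its Jun and Zfp36 levels was not tested. Leaving it out, which removes the highest Jun and Zfp36 values of early ND by construction, raised the calls over all genes in late against early ND from 333 to 1057 higher.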

How the results depend on the processing

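In late against early ND 1 of the 10 genes was called. The count was 8 with library totals, 5 without a filter on low counts, 4 with DESeq2's Wald test, 0 without the 3 libraries poor in 18S sequence, 4 without the 3 libraries rich in skin genes (an alternative chosen after seeing the data), and 0 to 5 with 1 mouse left out. In the first 5 of these settings 67%, 3.09%, 5.5%, 0.0298% and 5.51% of all genes were called higher, against 2.5%. The counts followed these shares only roughly, with 5 of 10 at 3.09% but 4 of 10 at 5.5%. Without late mouse 2 the count was 2 of 10, where 3.74% of all genes were called higher. In late ND against untreated mice 1 was called, and 10 with library totals (55.2% of all genes higher, against 0.989%), 2 with DESeq2 (1.9%), 0 without either set of 3 libraries (0% and 0.826%), and 0 to 1 with 1 mouse left out. Of the wider list, 3 genes were called in late against early ND, and 1 with DESeq2 size factors, 36 with library totals, 9 without a filter, 9 with DESeq2's Wald test, 0 without the 18S-poor and 7 without the skin-rich libraries (of the 3, Ppp1r15a but not Dusp6 or Trib1), and 0 to 13 with 1 mouse left out. With DESeq2 size factors 1.51% of all genes were called higher and 2.54% lower. In late ND against untreated 2 were called, and 36 with library totals, 1 with all 3 groups in one fit, 5 with DESeq2's Wald test, 0 without the 18S-poor and 1 without the skin-rich libraries, and 0 to 2 with 1 mouse left out. With all 3 groups in one fit 0.879% of all genes were called higher and 1.51% lower. The replicate block used numbers that the labels do not name as pairs. Same-number correlations averaged -0.0135, 0.243 and -0.0993 in the 3 comparisons, and 1, 3 and 0 mice correlated best with their own number. The block left 1 call of the 10 in both late ND comparisons (Zfp36, and Atf3) and 0 in early ND against untreated. Of the wider list it called 3 in late against early ND (Dusp6, Trib1 and, in place of Ppp1r15a, Fosl2) and 5 in late ND against untreated. In late against early ND, 2.76% of all genes were called higher and 2.29% lower with the block, against 2.5% and 2.48% without it. In late ND against untreated, 1.7% of all genes were called higher and 2.78% lower with the block, against 0.989% and 2.01% without it. Early ND against untreated gave 0 calls of either list under all settings run. Zfp36 in late against early ND and Atf3 in late ND against untreated kept their direction under all settings run. Among uncalled values, the log2 fold change of Fosb in late against early ND was 0.75 with library totals and 0.027 without the 18S-poor libraries, and ran from -0.245 to 0.078 with 1 mouse left out. That of Egr1 was -0.28 without the skin-rich libraries and ran from -0.18 to 0.44 with 1 mouse left out. Fos in late ND against untreated was -0.036 without the skin-rich libraries and ran from -0.15 to 0.38, and Egr1 in early ND against untreated ran from -0.064 to 0.52. The cause was not tested, except that library totals moved the median of all genes to 0.86 and 0.91 in the late ND comparisons. Depth limits Fosb (1 to 38 counts) and Egr1 (5 to 78 counts).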

Other observations

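Heat shock and chaperone genes, which respond to handling of cells, had 7 of 9 tested genes higher in late against early ND with 0 called and a median log2 fold change of 0.33 (the most abundant were Hspa8 at 0.37, Hsp90aa1 at -0.00065 and Dnaja1 at 0.36). The 9 ran from -0.105 to 1.53, and 1 was higher without overlap of the groups, against 2.98% of all genes. At an unadjusted p under 0.05 (edgeR), 2 were higher and 0 lower, against 14.4% and 9.33% of all genes. In late ND against untreated 2 of 9 were higher with 0 called (median -0.20), and in early ND against untreated 8 of 8 were lower with 0 called (median -0.33). Their summed level was 409 to 623 CPM in early ND, 440 to 737 CPM in late ND and 518 to 956 CPM in untreated mice, and their part in the levels of the immediate early genes was not tested.

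Genes of the machinery that acts upstream of the family, MAP kinases and the factors at SRF and CREB sites, had 12 of 17 higher in late against early ND with 0 called and a median log2 fold change of 0.14. The most abundant was Mapk14, at 0.43 on the log2 scale (edgeR, Benjamini-Hochberg adjusted p = 0.118). In late ND against untreated 12 of 17 were higher with 0 called (median 0.15), and in early ND against untreated 6 of 17 were higher with 0 called (median -0.05).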
